A study of Mus musculus with 19 samples.

Results

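The 37 genes described here carry fatty acids into heart cells, prepare them for the mitochondrion and burn them there. They were taken by gene symbol from a table of 29726 genes, and all 37 reached at least 1 FPKM in at least 4 of the 19 hearts, the level required for testing. The hearts were from C57BL/6NTac mice of wild-type genotype, 2 months old, raised germ-free and then colonised by faecal transfer. The donors were wild-type mice, whose microbiome is called normal, or Il10-/- mice, whose microbiome is called dysbiotic; mice without the anti-inflammatory cytokine IL-10 are a standard model of colitis. The groups were 4 males and 5 females with the normal microbiome and 5 males and 5 females with the dysbiotic one. No uncolonised germ-free heart was analysed here, the labels name no cage or donor animal for a heart, and effects of the microbiome and of the cage cannot be told apart. Each value is the deposited FPKM, which corrects for transcript length and library size, so levels can be set side by side between genes. Changes are differences of log2(FPKM + 1) ± SE, and each adjusted p (limma, two-sided) was corrected by Benjamini-Hochberg across the 10866 genes that were tested, with 0.05 as the threshold.

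Fatty acids reach the adult heart bound to albumin or are released from lipoproteins by lipoprotein lipase, and they provide most of its ATP. They are activated to acyl-CoA, exchanged onto carnitine to cross the mitochondrial membranes, and shortened in a repeated cycle of reactions that passes electrons to the respiratory chain. Many genes of this route are targets of the nuclear receptors PPARα and ERRα with their coactivator PGC-1α, and pyruvate dehydrogenase kinase 4 (Pdk4) closes the entry of glucose carbon while fat is burned.

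Promoters are shown for the 3 members called between the microbiomes over both sexes, and for Ucp3, whose window held the most receptor hexamers. Each is the 250 bases before an annotated transcript start in RefSeq on GRCm38.p6, written 5′ to 3′ on the gene's strand. Capitals mark the nuclear receptor hexamer AGGTCA or the E-box CACGTG. The Pdk4 window lies at chr6:5496279-5496528 on the minus strand, that of Slc22a5 at chr11:53891704-53891953 on the minus strand, that of Slc27a1 at chr8:71570344-71570593 on the plus strand and that of Ucp3 at chr7:100472741-100472990 on the plus strand. The Slc27a1 window is one of 3 listed for that gene and the one with a match.
Pdk4: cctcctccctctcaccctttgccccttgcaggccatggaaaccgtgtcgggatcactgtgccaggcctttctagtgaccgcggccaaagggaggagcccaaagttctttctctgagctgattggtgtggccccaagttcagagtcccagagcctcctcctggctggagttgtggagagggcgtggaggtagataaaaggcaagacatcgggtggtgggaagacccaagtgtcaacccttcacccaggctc
Slc22a5: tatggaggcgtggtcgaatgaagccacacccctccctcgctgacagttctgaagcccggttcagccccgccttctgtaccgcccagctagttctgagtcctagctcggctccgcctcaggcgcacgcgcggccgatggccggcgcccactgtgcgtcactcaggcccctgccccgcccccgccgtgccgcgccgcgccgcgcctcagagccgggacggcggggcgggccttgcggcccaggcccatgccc
Slc27a1: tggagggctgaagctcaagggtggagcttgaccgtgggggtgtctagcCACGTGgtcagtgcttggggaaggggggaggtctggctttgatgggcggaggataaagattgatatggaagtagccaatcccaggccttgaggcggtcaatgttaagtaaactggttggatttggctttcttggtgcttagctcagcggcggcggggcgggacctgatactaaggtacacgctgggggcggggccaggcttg
Ucp3: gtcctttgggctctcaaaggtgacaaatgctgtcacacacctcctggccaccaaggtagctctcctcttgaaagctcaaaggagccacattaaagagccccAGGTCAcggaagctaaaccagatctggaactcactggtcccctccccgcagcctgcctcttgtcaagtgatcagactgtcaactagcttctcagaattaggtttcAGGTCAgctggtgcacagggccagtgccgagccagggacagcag

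RefSeq promoters were matched by symbol for 31 of the 37 members, in 36 windows; Crat, Lpl, Cpt1b, Decr1, Acaa2 and Angptl4 had no entry. The hexamer AGGTCA, searched on both strands, lay in the windows of 7 members (Acadm, Acadvl, Cd36, Cpt1a, Echs1, Plin5 and Ucp3), and in 14% of all 32851 windows of the same length. In Ucp3 it began 149 and 44 bases before the start. The DR1 element, a direct repeat of that hexamer with 1 base between the copies (0.0335% of all windows), the ERR site TCAAGGTCA (0.387%) and the forkhead motif GTAAACA (3.17%), each searched on both strands, had no match in the members' windows. Both longer receptor motifs contain the hexamer. CACGTG lay in 6.02% of all windows and, among members, in the Slc27a1 window, 202 bases before the start. A match is a description of these letters, and no binding was measured.

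The tissue label held against its markers: all 12 cardiomyocyte markers were detected in each library, Myh6 at 2181 to 3337 FPKM and Mb at 4799 to 6306 FPKM. The labels give the cell type as Cardiocytes, but RNA was taken from a frozen piece of whole heart, endothelial markers summed to 217 to 279 FPKM, and atrial markers varied from 1423 to 4279.8 FPKM. In such bulk samples, fewer cells of a type and less RNA per cell cannot be told apart. Skeletal muscle markers summed to 0.610 to 2.50 FPKM, with Myh1 at 0 in 18 of 19 libraries. White adipocyte markers summed to 28.5 to 90.5 FPKM in females and 12.6 to 40.7 FPKM in males. Brown adipocyte markers summed to 18.7 to 40.2 FPKM, highest in normal female replicate 5. Among them Cidea was at 17.9 to 29.2 FPKM and Ucp1 at 0.292 to 10.6 FPKM. Liver markers summed to 8.70 to 780 FPKM (779.8 in normal male replicate 1). The mitochondrial genome contributed 51.1% to 57.4% of all FPKM. Between the microbiomes over both sexes, 2 of 10 endothelial markers rose, Emcn (0.29) and Tek (0.17), with 8 of 10 positive and a range from -0.15 to 0.29. Of 7 fibroblast markers 2 fell, Col3a1 (-0.31) and Col1a1 (-0.24), with 2 of 7 positive and a range from -0.31 to 0.13. Over all tested genes 3.34% were called higher and 2.33% lower in this comparison, and the part of these markers in the results below was not tested.

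Together the 37 members made up 0.949% to 1.29% of all FPKM. Their levels ran from Fabp3, the cytosolic fatty acid binding protein of heart muscle, at a mean of 2077 FPKM over the 19 hearts, down to Angptl4, a secreted inhibitor of lipoprotein lipase, at 4.41 FPKM. After Fabp3 came the last enzyme of the mitochondrial spiral, Acaa2 (426 FPKM), the long-chain dehydrogenase Acadl (396 FPKM), lipoprotein lipase (Lpl, 385 FPKM), the fatty acid translocase Cd36 (366 FPKM) and Pdk4 (351 FPKM). The muscle form of carnitine palmitoyltransferase 1, Cpt1b, averaged 160.2 FPKM, and the liver form Cpt1a 5.51 FPKM. The members also differed in how steady they were: the median of the 4 within-group coefficients of variation was lowest for Acadl (3.27%), Hadhb (3.52%) and Acadm (3.57%), and highest for Angptl4 (20.3%), Ehhadh (18.1%) and Pdk4 (17.4%). The 3 steadiest members were all enzymes of the mitochondrial spiral, but Acads of the same spiral ranked 24 of 37. Angptl4 and Ehhadh were also low in level, at ranks 37 and 34, while Pdk4 was at rank 6. The part of the level in this spread was not tested.

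**Figure D1:**
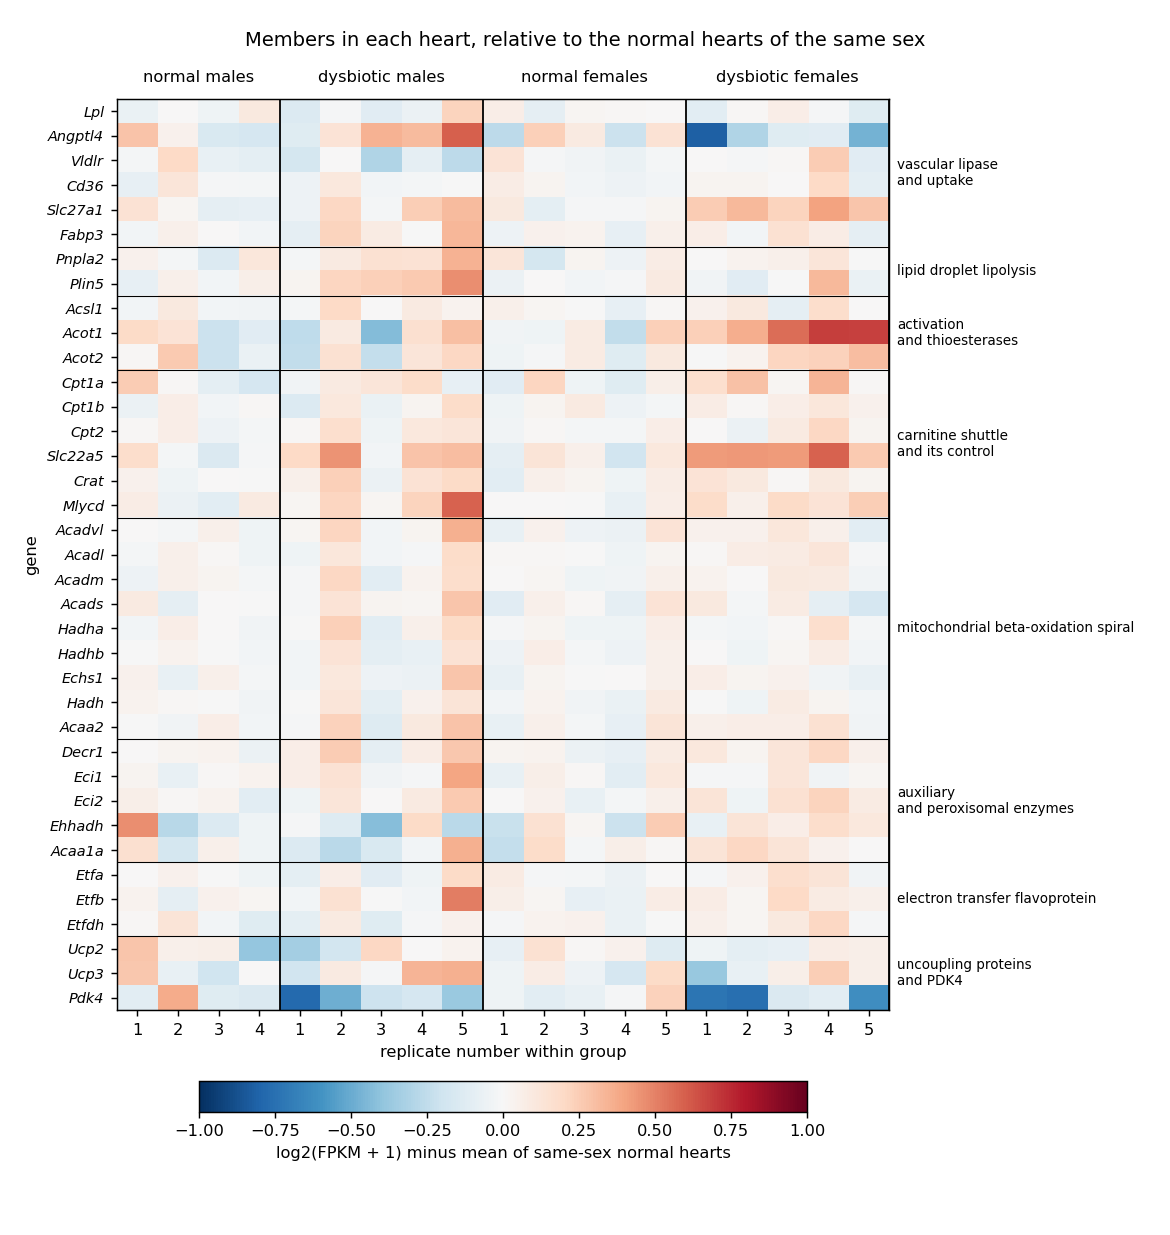
Each of the 37 members (rows, by role) in each of the 19 hearts (columns, by group), as log2(FPKM + 1) minus the mean of the normal hearts of the same sex. Pdk4 is blue in all 10 dysbiotic hearts, Slc22a5 and Slc27a1 are red in all 5 dysbiotic females, and dysbiotic male replicate 5 is red over most rows.

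With the dysbiotic microbiome, over both sexes, the carnitine transporter gene Slc22a5 and the fatty acid transport protein gene Slc27a1 were higher and Pdk4 was lower, while none of the 9 enzymes of the mitochondrial spiral changed past the threshold. These 3 calls among 37 members compare with 5.67% of all tested genes called in the same fit (3.34% higher and 2.33% lower), so the count as such lies close to the background. Of the 37 estimates, 31 were positive, with a median of 0.050, beside 59.5% positive and a median of 0.017 over all tested genes. The number of positive members fell to 28 after median-ratio scaling, where 48.9% of all genes were positive, and to 30 after upper-quartile scaling. At an unadjusted p below 0.05 there were 9 members, 8 of them higher, beside 17.4% of all tested genes (11.2% higher).

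Pdk4 phosphorylates and shuts down pyruvate dehydrogenase, and its transcript is known to rise with fasting. It stood at 342, 348, 352 and 489 FPKM in the 4 normal males and at 221, 269.9, 293, 328 and 338 FPKM in the 5 dysbiotic males. In females it stood at 394, 402, 412, 421 and 498 FPKM with the normal microbiome and at 251, 255, 275, 384 and 394 FPKM with the dysbiotic one. Within each sex every dysbiotic heart lay below every normal heart, by a narrow margin at the boundary: the highest dysbiotic male was at 337.5 FPKM against 342.3 FPKM in the lowest normal male, and the closest females were at 394.0 and 394.1 FPKM. Among all tested genes, 2.21% had such lower, non-overlapping groups in males and 1.58% in females. The log2 change of Pdk4 over both sexes was -0.44 ± 0.11 (adjusted p = 0.0192). Its change was -0.40 ± 0.15 in males (adjusted p = 0.235) and -0.47 ± 0.15 in females (adjusted p = 0.101), and neither passed alone.

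The normal groups each held 1 heart far above the rest, normal male replicate 2 at 489 FPKM and normal female replicate 5 at 498 FPKM. Without the former the change of Pdk4 over both sexes was -0.37 ± 0.10 (adjusted p = 0.0466), and without the latter -0.41 ± 0.11 (adjusted p = 0.0354). Dysbiotic females fell into 3 hearts at 251 to 275 FPKM and 2 hearts at 384 and 394 FPKM. Without dysbiotic female replicate 4, the higher of these 2, Pdk4 passed in females (-0.56 ± 0.14, adjusted p = 0.0497). The call over both sexes was lost without the filter on low values (-0.44, adjusted p = 0.0541) and with the white adipocyte sum as a covariate (-0.42, adjusted p = 0.0653), a fit chosen after seeing the data, while the estimate barely moved in either. The authors' deposited table, which pools the sexes, gives Pdk4 a fold change of 0.740 with q = 0.000522. The gene (ENSMUSG00000019577) spans chr6:5483351-5496309 on the minus strand of GRCm38.

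Slc22a5 encodes OCTN2, the plasma membrane transporter that brings carnitine into the cell. It stood at 5.46, 6.04, 6.07 and 7.05 FPKM in normal males and at 5.99, 7.20, 7.70, 7.84 and 8.76 FPKM in dysbiotic males. In females it stood at 6.23, 6.74, 7.54, 7.86 and 8.05 FPKM with the normal microbiome and at 8.88, 10.09, 10.09, 10.2 and 11.4 FPKM with the dysbiotic one. The female groups did not overlap, as for 3.27% of all tested genes in the same direction, while in males the lowest dysbiotic heart lay among the normal ones; no member rose without overlap in males, beside 2.49% of all genes. Slc22a5 rose by 0.34 ± 0.06 over both sexes (adjusted p = 0.00236) and by 0.43 ± 0.08 in females (adjusted p = 0.00783); in males the change was 0.24 ± 0.09 (adjusted p = 0.200). The difference between the sexes in this response was 0.18 ± 0.12 (adjusted p = 0.818). The authors' deposited table gives a log2 fold change of 0.38 with q = 0.0140. Slc22a5 and Pdk4 were the 2 members with q below 0.05 there, beside 1.8% of the 29726 genes. That share includes genes below the expression filter, which all 37 members passed, so the sets are unlike. Of the 50-base stretches of the Slc22a5 transcript, 27.2% also occur in other genes, mainly Slc22a21, itself at 0.133 to 0.395 FPKM, so the level is uncertain to that extent. The gene (ENSMUSG00000018900) spans chr11:53864542-53891660 on the minus strand.

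**Figure D2:**
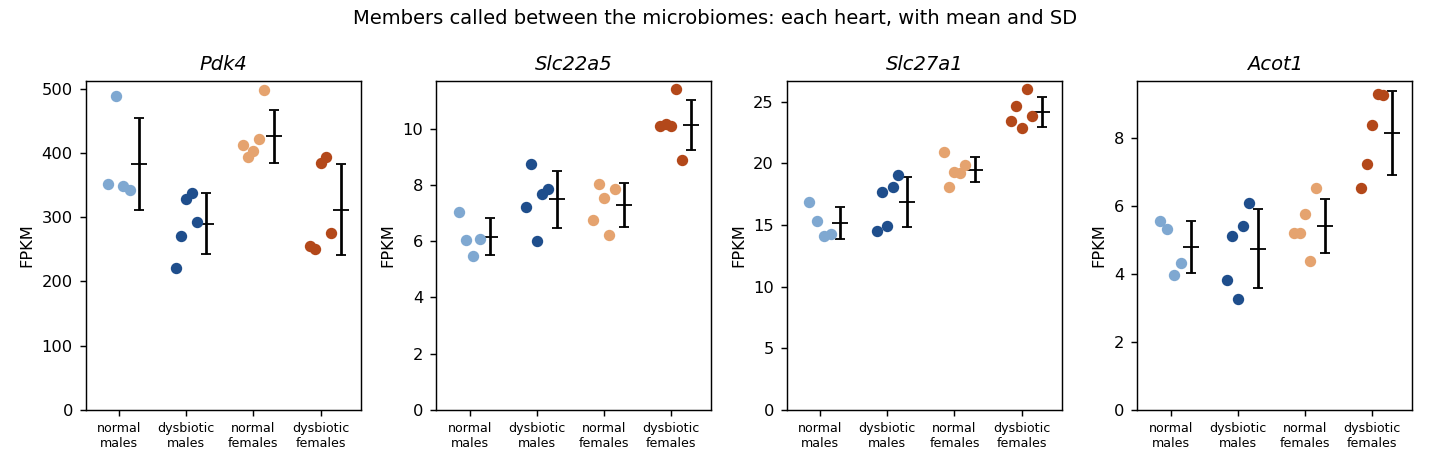
FPKM of Pdk4, Slc22a5, Slc27a1 and Acot1 in each heart, by sex and microbiome, with the mean and SD of each group beside the points (4 normal males, 5 hearts in each other group). The dysbiotic Pdk4 points start just below the normal ones in each sex, and the dysbiotic females stand above the normal females for Slc22a5 and Slc27a1.

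Among the genes of the vessel wall and of uptake, Slc27a1 was the 1 of 6 that changed. It encodes FATP1, which draws long-chain fatty acids across the membrane by coupling their entry to activation. Normal males were at 14.1, 14.3, 15.3 and 16.9 FPKM and dysbiotic males at 14.5, 14.9, 17.6, 18.1 and 19.1 FPKM. Normal females were at 18.1, 19.2, 19.3, 19.9 and 20.9 FPKM and dysbiotic females at 22.9, 23.4, 23.9, 24.6 and 26.1 FPKM. The females separated without overlap, and in males the lower 2 dysbiotic hearts lay within the normal range. Slc27a1 rose by 0.22 ± 0.05 over both sexes (adjusted p = 0.0119) and by 0.30 ± 0.07 in females (adjusted p = 0.0216), with 0.14 ± 0.07 in males (adjusted p = 0.413). The female call was lost without normal female replicates 3 (adjusted p = 0.0510) or 4 (0.0571) or dysbiotic female replicates 2 (0.0518) or 4 (0.0586), with estimates of 0.27 to 0.29. The call over both sexes was lost without a sex term (adjusted p = 0.484). In the authors' deposited table, which pools the sexes, its log2 fold change was 0.22, with q = 0.599879, far above the threshold. The gene (ENSMUSG00000031808) spans chr8:71568882-71587302 on the plus strand.

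The other 5 of this group did not pass. Fabp3, the most abundant, had a change of 0.07 ± 0.05 over both sexes (adjusted p = 0.497); 29.2% of its 50-base stretches occur in the pseudogene Fabp3-ps1, listed at 94.2 to 141 FPKM, and its level is uncertain. Cd36, through which much of the fatty acid enters the cell, had 0.02 ± 0.04, and Lpl -0.03 ± 0.04. Vldlr, a receptor that docks triglyceride-rich lipoproteins, had -0.16 ± 0.08 in males and 0.03 ± 0.07 in females. Angptl4 had opposite signs in the sexes. It stood at 3.63 to 5.35 FPKM in normal and 3.79 to 6.89 FPKM in dysbiotic males, and at 3.65 to 5.58 FPKM in normal and 2.17 to 4.16 FPKM in dysbiotic females. Both pairs of ranges overlapped. The difference of the 2 responses was -0.62 ± 0.22 with an unadjusted p below 0.05, and it did not pass adjustment (adjusted p = 0.457).

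On the lipid droplet, Pnpla2 (ATGL, which starts the breakdown of stored triglyceride) had a change of 0.09 ± 0.05 over both sexes and Plin5, the coat protein that links droplets to mitochondria, 0.13 ± 0.06; neither passed. Plin5 was at 50.8, 52.7, 55.5 and 56.0 FPKM in normal males and at 54.9, 62.3, 63.5, 64.6 and 74.6 FPKM in dysbiotic males, a change of 0.24 ± 0.08 (adjusted p = 0.159). In females its change was 0.02 ± 0.08, and the sexes' difference was -0.22 ± 0.11 (adjusted p = 0.708).

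Of the activating enzyme Acsl1 and the thioesterases Acot1 and Acot2, which turn acyl-CoA back to free fatty acid in the cytosol and in the mitochondrion, Acot1 rose in females. Normal females were at 4.38, 5.20, 5.21, 5.76 and 6.54 FPKM and dysbiotic females at 6.54, 7.225, 8.38, 9.26 and 9.31 FPKM. The highest normal female (6.542 FPKM) was just above the lowest dysbiotic one (6.540 FPKM), and the other 4 dysbiotic females were above all normal ones. Normal males were at 3.97, 4.32, 5.34 and 5.56 FPKM and dysbiotic males at 3.26, 3.83, 5.11, 5.43 and 6.09 FPKM, fully overlapping. The change was 0.51 ± 0.13 in females (adjusted p = 0.0470) and -0.03 ± 0.14 in males (adjusted p = 0.967), and the difference of these responses was 0.54 ± 0.19 (adjusted p = 0.464).

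The Acot1 call lay close to the threshold. It was lost without any of 12 of the 19 libraries, with estimates of 0.45 to 0.54 in these refits and adjusted p from 0.0510 (without dysbiotic male replicate 4) to 0.138 (without normal female replicate 4). These 12 were normal male replicates 2 and 4, dysbiotic male replicates 2 and 4, normal female replicates 1 to 4 and dysbiotic female replicates 2 to 5. The call was also lost under each of the 3 other scalings (adjusted p of 0.0543 median-ratio, 0.0534 upper-quartile and 0.0558 to nuclear genes), without the filter (0.122), with a pseudocount of 0.1 (0.0576), and with the white adipocyte (0.0962) or liver (0.0707) sum as a covariate. Acot1 (ENSMUSG00000072949, chr12:84009490-84018371, plus strand) shares 33.65% of its 50-base stretches with other genes, mostly its neighbour Acot2, so counts of the pair can be exchanged. Acot2 had 0.15 ± 0.10 in females (adjusted p = 0.559), at 18.95 to 22.1 FPKM in normal and 20.6 to 25.8 FPKM in dysbiotic hearts. Acsl1 had 0.05 ± 0.04 over both sexes.

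In the carnitine shuttle all 6 estimates over both sexes were positive, with a median of 0.10, and only Slc22a5 passed. Mlycd, which degrades malonyl-CoA, the inhibitor of carnitine palmitoyltransferase 1, came next. It was at 24.1, 24.9, 27.5 and 27.8 FPKM in normal males and at 26.43, 26.44, 30.4, 30.6 and 39.7 FPKM in dysbiotic males. In females it was at 30.9, 32.5, 32.6, 32.6 and 34.2 FPKM and at 33.8, 35.9, 37.2, 37.3 and 38.9 FPKM. The groups overlapped by 2 hearts in males and by 1 pair in females, and the change was 0.19 ± 0.06 over both sexes (adjusted p = 0.0718). It passed when dysbiotic male replicate 1 or 3 was left out. Crat, which buffers acetyl-CoA by moving acetyl groups to carnitine, had 0.09 ± 0.04 (adjusted p = 0.209). Cpt1b had 0.04 ± 0.04 and Cpt2, the inner membrane partner, 0.06 ± 0.04. Cpt1b shares 93.0% of its 50-base stretches with the readthrough gene Gm44502 (0.299 to 6.52 FPKM) and is uncertain.

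The estimates of the mitochondrial spiral were small. Limma called 0 of its 9 genes over both sexes, in males or in females. Beside this, 5.67%, 1.91% and 2.84% of all tested genes were called, so 0 of 9 lies near the background. Over both sexes none had an unadjusted p below 0.05, beside 17.4% of all tested genes. The median estimate of the spiral was 0.048, beside 0.050 for all members and 0.017 over all tested genes. Over both sexes the estimates ran from 0.01 (Hadhb) to 0.08 (Acaa2), and the smallest adjusted p was 0.444. Acaa2, the thiolase, was at 418 to 447 FPKM in normal and 391 to 521 FPKM in dysbiotic males, and at 377 to 437 FPKM in normal and 391 to 444 FPKM in dysbiotic females. The acyl-CoA dehydrogenases, which open each turn for very long (Acadvl), long (Acadl), medium (Acadm) and short chains (Acads), had changes of 0.07 ± 0.05, 0.05 ± 0.03, 0.05 ± 0.04 and 0.04 ± 0.05. The trifunctional protein genes Hadha and Hadhb had 0.05 ± 0.04 and 0.01 ± 0.04. All 9 estimates were positive, but 7 were after median-ratio scaling and 7 without dysbiotic male replicate 5. Hadhb shares 62.4% of its 50-base stretches with other genes and is uncertain.

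**Figure D3:**
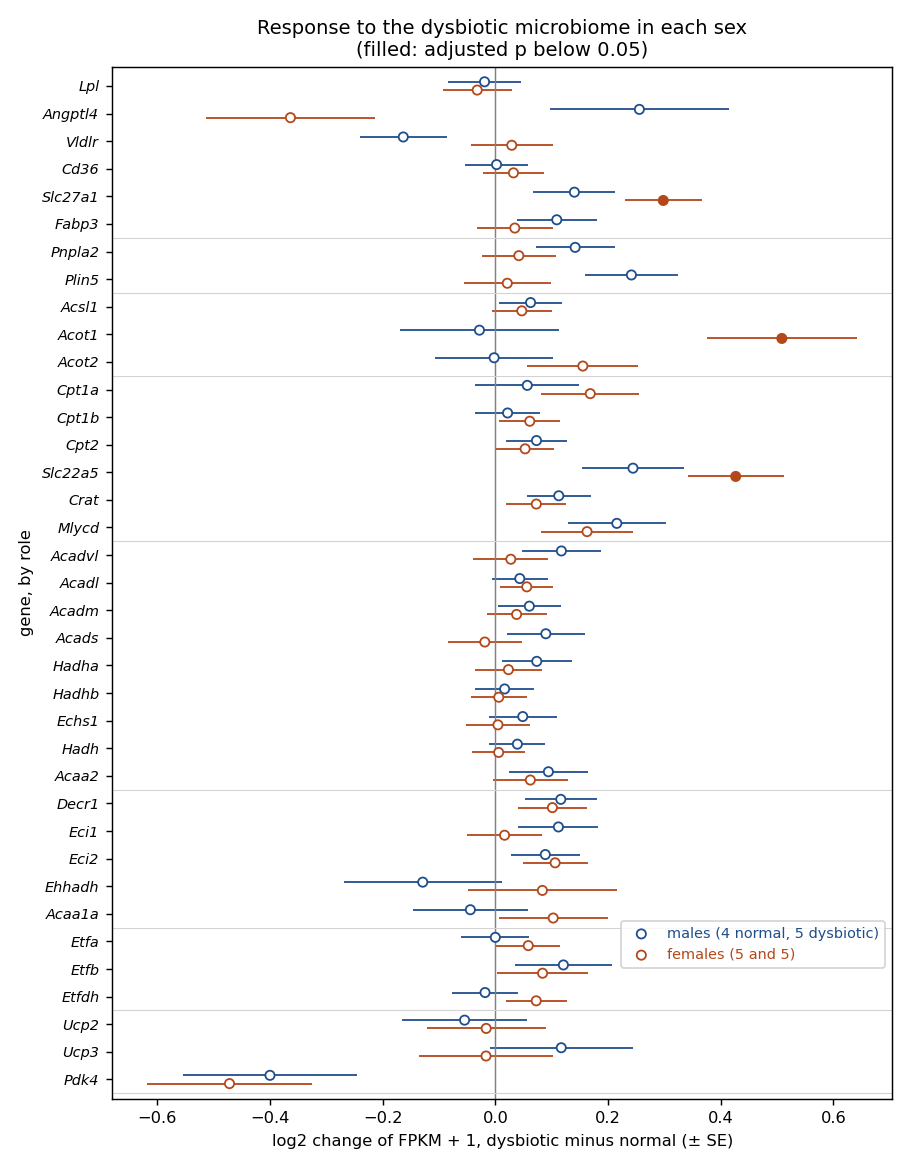
Change of log2(FPKM + 1) between dysbiotic and normal hearts for each member, in males (blue) and females (orange), with the SE as a bar and a filled point where the adjusted p was below 0.05. The 3 filled points are Slc27a1, Acot1 and Slc22a5 in females, the spiral enzymes lie near 0, and Pdk4 lies lowest in both sexes.

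Dysbiotic male replicate 5 stood apart from its group. It was the highest of the 5 dysbiotic males for 24 of the 37 members, beside 39.1% of all tested genes, and its members summed to 7765 FPKM against 6195 to 7255 FPKM in the other 4. Its cardiomyocyte markers summed to 26867 FPKM, against 20419 to 22736 FPKM in those 4, and its share of mitochondrial genome FPKM was the lowest of all libraries at 51.1%. Among females, normal replicate 5 was highest in its group for 22 members, beside 17.2% of all tested genes. Dysbiotic female replicate 4 was highest in its group for 23 members, beside 19.7% of all tested genes. Leaving out any of these 3 libraries kept 3 calls over both sexes.

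None of the 5 auxiliary and peroxisomal enzymes passed. Decr1, which prepares polyunsaturated chains for the spiral, had 0.11 ± 0.04 (adjusted p = 0.191), and the isomerases Eci1 and Eci2 had 0.06 ± 0.05 and 0.10 ± 0.04. Eci1, the most abundant of them, was at 73.3 to 79.1 FPKM in normal and 75.3 to 102 FPKM in dysbiotic males, and at 78.5 to 90.8 FPKM in normal and 82.4 to 91.8 FPKM in dysbiotic females. The peroxisomal enzymes Ehhadh and Acaa1a had -0.02 ± 0.10 and 0.03 ± 0.07. Ehhadh was highest among males in normal replicate 1, at 8.61 FPKM against 4.74 to 5.76 FPKM in the other normal males. That library also held the most liver marker RNA, whose part in this value was not tested. Acaa1a shares 34.03% of its 50-base stretches with Acaa1b and is uncertain.

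The electron transfer flavoprotein, which collects electrons from the dehydrogenases, had changes of 0.03 ± 0.04 (Etfa), 0.10 ± 0.06 (Etfb) and 0.03 ± 0.04 for its ubiquinone oxidoreductase Etfdh. Etfb was at 279 to 306 FPKM in normal and 291 to 426 FPKM in dysbiotic males, and at 301 to 335 FPKM and 323 to 367 FPKM in females; 67.3% of its 50-base stretches occur in Gm45233, and it is uncertain. Of the uncoupling proteins of the inner membrane, Ucp2 had -0.04 ± 0.08 and Ucp3 0.05 ± 0.09.

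Counted by sex, limma called 0 members in males, where 1.91% of all genes were called (0.957% higher and 0.948% lower), and 5 had an unadjusted p below 0.05, beside 13.6% of all genes: Plin5, Slc22a5 and Mlycd with positive and Pdk4 and Vldlr with negative estimates. In females 3 were called higher and 0 lower, beside 2.84% of all genes called (1.86% higher and 0.985% lower). No member was called for a difference between the responses of the sexes, beside 0.396% of all genes (0.377% higher and 0.0184% lower); 2 had an unadjusted p below 0.05, Acot1 and Angptl4, beside 7.41% of all genes. A call in females and none in males therefore does not show that the sexes responded differently.

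Between the sexes, over both microbiomes, 11 members were higher and 4 lower in females (10 hearts) than in males (9 hearts), beside 31.4% of all tested genes (23.4% higher and 7.94% lower). Both lipid droplet genes and both uncoupling protein genes were higher in females, 2 of the 6 uptake genes were higher and 2 lower, and 1 of the 9 spiral enzymes was higher and 1 lower. Pnpla2 was at 114 to 159 FPKM in males (median 133) and at 166 to 204 FPKM in females (median 191). The sexes did not overlap, as for 2.37% of all tested genes in this direction. The difference was 0.53 ± 0.05 (adjusted p = 3.36e-07), with ratios of the group means of 1.496 under the normal and 1.39 under the dysbiotic microbiome.

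Ucp2 was at 11.4 to 18.7 FPKM in males (median 15.7) and at 19.8 to 24.3 FPKM in females (median 21.6), again without overlap, a difference of 0.51 ± 0.08 (adjusted p = 8.18e-05). Ucp3 was at 19.5 to 29.0 FPKM in males (median 22.5) and at 25.9 to 40.4 FPKM in females (median 34.1), with some overlap and a difference of 0.50 ± 0.09 (adjusted p = 0.000291). The 2 genes are neighbours on chromosome 7, Ucp3 at chr7:100472990-100486432 and Ucp2 at chr7:100493337-100502020, both on the plus strand.

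The 3 members called between the microbiomes in females were all among those higher in females than in males: Slc27a1 by 0.42 ± 0.05 (adjusted p = 5.73e-06), Acot1 by 0.42 ± 0.10 and Slc22a5 by 0.30 ± 0.06. These comparisons use the same female hearts and are set side by side only. The ratio of female to male means was 1.13 under the normal and 1.72 under the dysbiotic microbiome for Acot1, 1.29 and 1.43 for Slc27a1 and 1.18 and 1.35 for Slc22a5. Ehhadh (0.43 ± 0.10), Mlycd (0.29 ± 0.06), Plin5 (0.26 ± 0.06), Lpl (0.16 ± 0.04) and Echs1 (0.13 ± 0.04), the hydratase of the spiral, were also higher in females. The last 2 lost their call after median-ratio and upper-quartile scaling.

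Lower in females was Decr1, at 73.1 to 94.1 FPKM in males (median 79.6) and 63.6 to 77.9 FPKM in females (median 69.4), a log2 difference of -0.21 ± 0.04 (adjusted p = 0.00135). Fabp3 was at 1987 to 2652 FPKM in males (median 2111) and at 1812 to 2149.8 FPKM in females (median 1983), a difference of -0.17 ± 0.05 (adjusted p = 0.0141). Acadm was at 222 to 275 FPKM in males (median 243) and at 210.0 to 231 FPKM in females (median 218), a difference of -0.15 ± 0.04 (adjusted p = 0.00534). The fourth was Cd36 (-0.15 ± 0.04). All 4 distributions overlapped. After median-ratio scaling, 9 members were called higher and 9 lower.

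White adipocyte marker RNA was higher in the female libraries, where its highest value was in normal replicate 5. The mean sum was 49.6 FPKM in females and 23.5 FPKM in males, and Cfd alone averaged 24.8 and 6.25 FPKM. All 5 tested markers had positive differences and 2 were called. The log2 sum of the markers was used as a covariate, an alternative added after the data were seen. With it, 4 members remained called (Pnpla2, Ucp2 and Slc27a1 higher, Decr1 lower). The other 11 kept their direction, and 5 of them had differences of -0.19 (Fabp3), -0.17 (Acadm), 0.28 (Plin5), 0.18 (Lpl) and 0.26 (Mlycd), close to those without the covariate. Ucp3 had 0.42, Ehhadh 0.29, Acot1 0.29 and Slc22a5 0.22. The count over all genes fell from 3411 to 827 in that fit. Sex and this sum are tied in these hearts, since only the ranges from 28.5 to 40.7 FPKM are shared, and its part in the difference was not tested further.

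**Figure D4:**
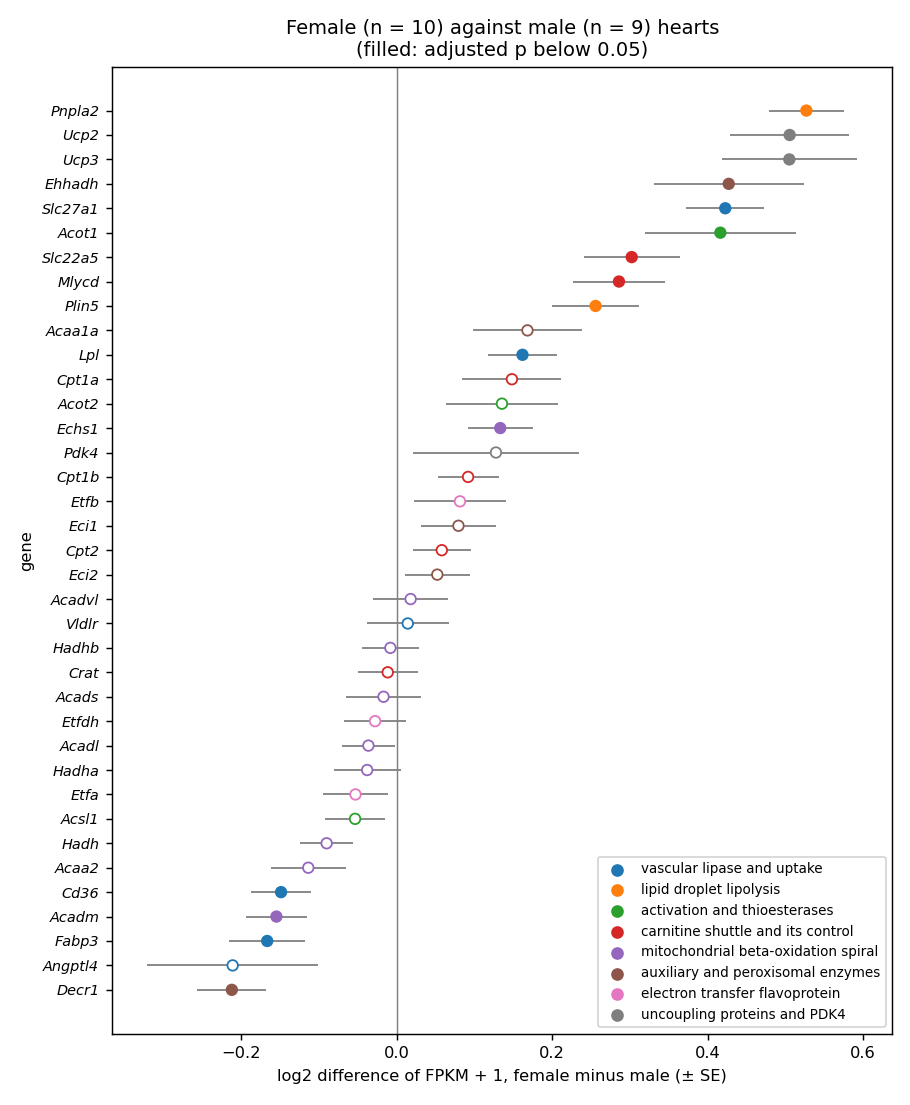
Female minus male difference of log2(FPKM + 1) for each member, ordered by size, with the SE as a bar, the role as colour and a filled point where the adjusted p was below 0.05. Pnpla2, Ucp2 and Ucp3 stand at the top near 0.5, and Decr1, Fabp3, Acadm and Cd36 are the 4 filled points below 0.

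Pdk4 varied most among the abundant members, and its heart-to-heart variation was compared with that of 8 genes after the group means had been removed (19 hearts, two-sided permutation within groups, 8 relations). The strongest relation was with Plin5, with Pearson r = 0.65 (permutation p = 0.00661, adjusted p = 0.0529) and Spearman rho = 0.72 (permutation p = 0.00175, adjusted p = 0.0140). Without normal male replicate 2 and dysbiotic female replicate 4, the hearts farthest from the median on the plotted deviations of Pdk4, r was 0.55. Without normal male replicate 2 and normal female replicate 5, farthest in FPKM, it was 0.66. Pearson r was 0.56 for Angptl4 (permutation p = 0.0312, adjusted p = 0.124) and 0.51 for each of Acot2 and Ucp3 (permutation p = 0.0504 and 0.0618, adjusted p = 0.124 for both). It was 0.41 for Acot1, 0.32 for Hadha and 0.16 for Cpt1a (permutation p = 0.119, 0.268 and 0.554). For Ppargc1a it was 0.040 (permutation p = 0.878). Without the 2 hearts farthest in deviation r was 0.55 for Angptl4 and Ucp3, 0.37 for Acot2, 0.31 for Acot1, 0.034 for Hadha, 0.0055 for Cpt1a and -0.39 for Ppargc1a. Spearman rho was 0.49 for Angptl4, 0.53 for Acot2, 0.42 for Ucp3, 0.44 for Acot1, 0.50 for Hadha, 0.16 for Cpt1a and 0.035 for Ppargc1a, with permutation p from 0.0410 (Hadha) to 0.891 (Ppargc1a) and adjusted p of at least 0.110. No relation but that of Plin5 passed on either measure, and Plin5 passed by rank. All values of a heart share one library and its scaling.

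**Figure D5:**
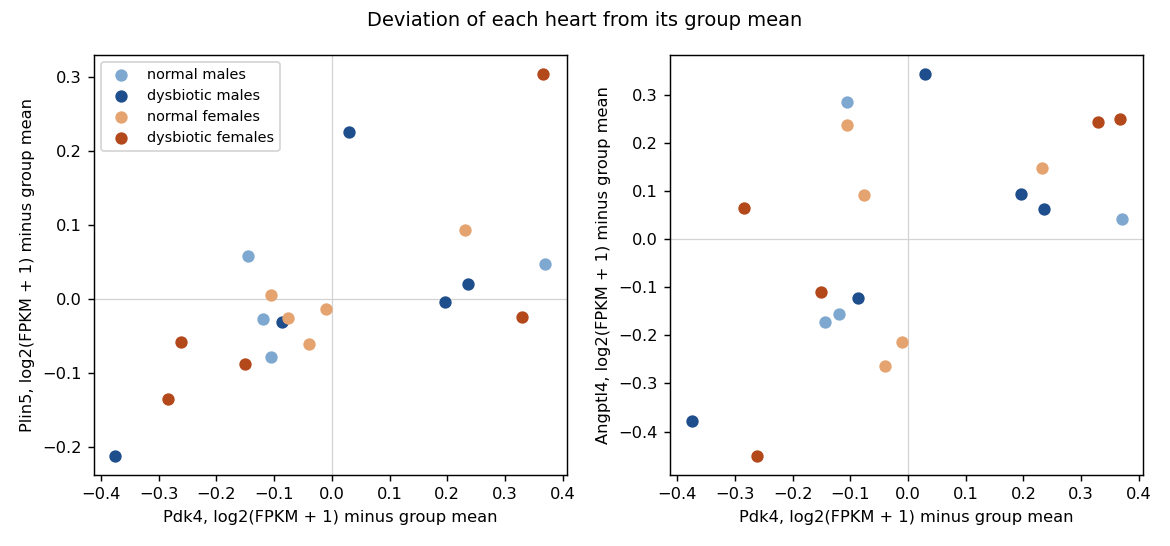
Deviation of each of the 19 hearts from its group mean in log2(FPKM + 1), Pdk4 on the horizontal axis against Plin5 (left) and Angptl4 (right), coloured by group. The points rise together for Plin5 (r = 0.65) and with more scatter for Angptl4 (r = 0.56).

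Another 115 genes of the route and its control were counted beside the members, and 106 of them passed the filter; over both sexes 6 rose and 5 fell, beside 3.34% of all tested genes called higher and 2.33% lower. Of 27 control genes, 1 rose and 4 fell. Ppargc1a, which encodes PGC-1α, was at 16.2 to 38.1 FPKM in normal and 8.59 to 13.6 FPKM in dysbiotic males and at 18.7 to 32.1 FPKM in normal and 9.44 to 13.0 FPKM in dysbiotic females. In each sex its ranges did not overlap, and it fell by 1.06 ± 0.13 (adjusted p = 0.000127). Klf15, a factor of the fasted and glucocorticoid-exposed heart that promotes lipid use, fell by 0.52 ± 0.06, and Lpin1, a phosphatidate phosphatase that also serves PGC-1α as a nuclear partner, by 0.24 ± 0.06. The Lpin1 call was lost without the expression filter (adjusted p = 0.0571) and with the white adipocyte sum as a covariate (0.0635). The orphan receptor genes Esrrg (-0.17 ± 0.05) and Esrrb (0.16 ± 0.04) went apart, and Esrrb was named after its values were seen. Both lay near the threshold: the call was lost in 9 and 13 of the 19 refits that left out 1 library each. Ppara had -0.23 ± 0.09 (adjusted p = 0.146) and Esrra 0.05 ± 0.06 (adjusted p = 0.708).

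Among 26 tested genes of uptake, binding and storage, 3 rose and 0 fell: Gpam (0.32 ± 0.06) and Dgat2 (0.21 ± 0.04), which catalyse the first and the last step of triglyceride synthesis, and the droplet coat gene Plin2 (0.30 ± 0.07). Without a sex term the calls of Dgat2 (adjusted p = 0.303) and Plin2 (0.118) were lost. With the white adipocyte sum as a covariate that of Plin2 was lost (0.0726). Of 12 genes of the pyruvate switch and uncoupling, the pyruvate dehydrogenase phosphatase gene Pdp1 rose by 0.29 ± 0.05 (adjusted p = 0.00230) and its relative Pdp2 fell by 0.22 ± 0.05. Both phosphatases reverse the phosphorylation that Pdk4 carries out. The Pdp2 call was lost without a sex term (adjusted p = 0.127) and with the white adipocyte sum as a covariate (0.0729). Of 26 other mitochondrial oxidation and carnitine genes, 1 rose, the thioesterase gene Acot11 (0.19 ± 0.05), a call lost in 9 of 19 refits without 1 library. Of 15 peroxisomal genes limma called 0, with a smallest adjusted p of 0.135. Ppara was also lower in females than in males, by a difference of -0.46 ± 0.09 (adjusted p = 0.000602), with means ± SD of 3.52 ± 0.548 FPKM in normal males (n = 4), 2.47 ± 0.498 in dysbiotic males, 1.94 ± 0.221 in normal females and 1.81 ± 0.519 in dysbiotic females (n = 5 each).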

How the data were processed

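Poly(A)-selected heart RNA of 19 mice was sequenced. Per the submitters' processing notes, reads were trimmed, aligned and assembled by the authors with tools that include cutadapt 1.9, HISAT2 2.0.4 and StringTie 1.3.4d, and the authors used DESeq2. The build named there is the human hg38, whereas the table's Ensembl IDs are those of mouse genes, 99.7% of them found in GENCODE M21, so gene coordinates were read from GENCODE on GRCm38. Per the file headers, the deposited values are FPKM for each gene and library, and the authors' fold change (a ratio of dysbiotic to normal with the sexes pooled), its log2 value, and the authors' p-value and q-value. It holds no counts. Of low FPKM values, 23.7% to 29.4% per library fell on a whole step within a tolerance of 0.02, so reads were not recovered, the depth of each library is not known, and no counting interval is given.

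A gene was kept when 4 or more libraries had 1 FPKM or more (10866 genes). The test was limma-trend (limma 3.58.1 in R 4.3.3), with robust moderation, on log2(FPKM + 1), and a single fit over the 19 libraries estimated 1 mean for each group; the pseudocount makes log2 changes of low genes smaller. A count test had been set for the case that counts were given. All 37 members passed the filter, so the exact permutation test set aside for members below it was not needed. Nothing in the labels says how animals were caged or RNA was batched, so p-values measure the spread between these mice. Members and lists were chosen with earlier results of these data known. Full values are given for members called between the microbiomes and for the 3 largest called differences in each direction between the sexes, and other pathway genes were named by smallest p, up to 4 per list, plus Ppargc1a, Ppara and Esrra; values of Plin5, Mlycd and Angptl4 were added after they were seen. Correlations used 100000 permutations within groups. Near-identical genes were found as stretches of 50 bases shared between GENCODE transcripts. On simulated data with a log2 change of 0.5 in 200 of 10866 genes, the fit recovered 97.5% over both sexes, 90.5% in males, 86% in females, 70% of the differences between the responses and 93.5% between the sexes. Alternatives covered scaling, the filter, the pseudocount, moderation, the sex term, the replicate number as a block, covariates and leaving out each library. Tables and figures were made with Python 3.11.15, pandas 2.3.3, scipy 1.17.1 and matplotlib 3.10.9.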

Additional observations from a re-analysis of the deposited data

Results flagged for a closer look

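Each member was looked at in each of the 4 groups (148 sets of 4 or 5 hearts) for 1 heart far from the others, by Dixon's gap at its 95% level. In 7 sets a heart stood apart, and chance alone flags about 5% of such sets. Pdk4 was at 489 FPKM in normal male replicate 2 against 342 to 352 FPKM in the other normal males, and at 498 FPKM in normal female replicate 5 against 394 to 421 FPKM in the other normal females. In dysbiotic female replicate 4, Plin5 was at 87.4 FPKM against 64.2 to 69.4 FPKM, and Hadha at 164 FPKM against 143 to 147 FPKM. Acsl1 was at 72.6 FPKM in normal male replicate 2 against 66.1 to 66.7 FPKM. Cd36 was at 414 FPKM in dysbiotic male replicate 2 against 373 to 385 FPKM. Vldlr was at 24.7 FPKM in normal female replicate 1 against 21.4 to 22.2 FPKM. All 7 were the highest of their group, and normal male replicate 2 and dysbiotic female replicate 4 each held 2 of them.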

How the results depend on the processing

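The 21 results for single members called in some comparison kept their direction under all alternatives run (590 of 633 refits on the same side of the threshold, 43 past it no longer), as did the 11 other pathway genes called over both sexes (289 of 341, and 52). Over both sexes 3 members were called, 1 without a sex term (Pdk4; Slc22a5 and Slc27a1 then had adjusted p of 0.0717 and 0.484), and 3 to 4 when 1 library was left out. In females 3 were called, 1 without the expression filter (Slc22a5), and 1 to 3 without 1 library; 1 was left without normal female replicate 3 or 4 or dysbiotic female replicate 2. In males and for the difference between the responses 0 were called throughout. Between the sexes 15 were called, 4 with the white adipocyte sum as a covariate, and 15 to 19 without 1 library. After median-ratio scaling the split over all genes was 364 higher and 394 lower between the microbiomes, against 363 and 253, and 1768 and 1764 between the sexes, against 2548 and 863.

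The Pearson correlation of Pdk4 with Plin5 passed after upper-quartile scaling (r = 0.674, adjusted permutation p = 0.0495) and after scaling to nuclear genes (r = 0.665, adjusted p = 0.0318). It did not pass after median-ratio scaling or with a pseudocount of 0.1 (largest adjusted p = 0.0539). Without 1 heart r ran from 0.547 to 0.739, passing in 6 of 19 refits, with a largest adjusted p of 0.249. Without normal male replicate 1 Angptl4 (adjusted p = 0.0390) and Ucp3 (0.0464) also passed, without normal male replicate 2 Ucp3 (0.0496), and without dysbiotic male replicate 3 Acot1 and Acot2 (0.0414 each). The ranges without 1 heart were 0.458 to 0.645 for Angptl4, 0.395 to 0.629 for Ucp3, 0.385 to 0.683 for Acot2, 0.334 to 0.637 for Acot1 and -0.336 to 0.149 for Ppargc1a, whose sign turned without normal male replicate 1 (-0.0363) or 2 (-0.336) or dysbiotic male replicate 4 (-0.0289). The cause of these changes was not tested.

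The labels do not say what the replicate numbers stand for. Over 27 same-numbered pairs of hearts, correlations of deviations ran from -0.489 to 0.529, with 10 above 0.1. Their median was -0.032, beside -0.021 for the other pairs, and 3 of 19 hearts correlated best with a heart of their own number. These correlations cannot show whether same-numbered hearts shared a cage or batch. With the number as a replicate block, 3 members were called over both sexes, 0 in males, 3 in females, 0 for the difference and 15 between the sexes. Over all tested genes, the calls fell from 207 to 106 in males and from 616 to 514 over both sexes. Depth is not known for certain, so the counting error of the low members (Angptl4, Cpt1a, Acot1, Ehhadh, Slc22a5) is not given.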

Other observations

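Fabp3 made up 31.9% to 34.3% of the summed FPKM of the 37 members in males and 28.8% to 31.0% in females, so the sexes did not overlap in this share, with Fabp3-ps1 reads as a limit. Among the 106 other pathway genes, 24 were higher and 8 lower in females than in males. Beside this, 31.4% of all tested genes were called, 23.4% higher and 7.94% lower. After median-ratio scaling the split over all genes was 1768 higher and 1764 lower, so the excess of higher genes depends on the scaling. By list, 8 of 26 genes of uptake, binding and storage were higher and 0 lower. Of 27 control genes 8 were higher and 5 lower. No list was tested against these shares or against another list. The peroxisomal list had 1 of 15 in each direction.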
